A study of Saccharomyces cerevisiae with 15 samples.

Results

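The 10 genes described here were the 8 enzyme genes of heme synthesis, *HEM1*, *HEM2*, *HEM3*, *HEM4*, *HEM12*, *HEM13*, *HEM14* and *HEM15*, and *HAP1* and *ROX1*, which encode heme-responsive transcription factors. They were picked by name out of 6224 genes measured, because *HEM13* had one of the largest differences between the melatonin effects with and without stress. RNA came from the commercial *Saccharomyces cerevisiae* wine strain QA23, grown in rich glucose medium and put on 15 one-colour arrays, 3 for each of 5 conditions, which the study's methods call biological replicates. Control cells had 0 μM melatonin and 0 mM H2O2, Mel cells 5 μM and 0 mM, H cells 0 μM and 2 mM, MelH cells 5 μM and 2 mM, and 25MelH cells 25 μM and 2 mM. Melatonin, an indolamine, was in the medium from inoculation, and H2O2, a sublethal oxidative stress, was added in early exponential growth for 1 h. The study's methods describe no change of medium before that hour. No unstressed culture with 25 μM melatonin was among the arrays, and all conditions used the same strain.

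Heme, the iron-holding ring of cytochromes, catalases and other enzymes, is built from glycine and succinyl-CoA in steps that start and end in the mitochondrion and run through the cytosol in between. In *S. cerevisiae*, heme is also a signal of oxygen, because the late oxidation steps consume oxygen. Hap1 is a zinc-finger factor that binds heme and then activates respiratory genes and *ROX1*, and Rox1 is a repressor that shuts off hypoxic genes, *HEM13* among them, in aerated cells. In the laboratory strain S288C, *HAP1* is interrupted near its end by a Ty1 element, and the allele of QA23 was not examined here.

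A level below is the log2 signal of a gene's probe minus the 75th percentile of all probe signals on the same array, so it is relative to the other genes and cannot be set against the level of another gene. A change in it cannot tell fewer transcripts of one gene from more of all others. The 75th percentile signal was 4186 to 5922 on the 6 unstressed arrays and 2274 to 3552 on the 9 stressed ones, and 86.3 to 95.3% of genes were well above background. Array pairs of one condition correlated over all genes at r of 0.992 to 0.997. The arrays sat on 2 slides, each with arrays of all 5 conditions. The stress labels were checked with *SRX1*, *TRX2*, *TRR1*, *GSH1* and *OYE3*, genes of the yeast oxidant defence, and 5 of 5 rose in both H vs. Control (27.2% of all genes) and MelH vs. Mel (21.9%). When arrays were scaled on 7 spike-in probes instead, 1 was called higher and 3 lower in H vs. Control, and 3 higher and 0 lower in MelH vs. Mel. In a second deposited table of processed values, 9 of 15 columns equal the scanner values of another condition than the one they are named for, so the scanner values with their own labels were used. *SRX1*, for sulfiredoxin, had levels of −5.49, −4.83 and −5.35 in Control and of −2.46, −2.41 and −2.35 in H.

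All 10 members were well above background on all 15 arrays, and they varied very unequally. *HEM13* spanned 3.8 log2 units over the 15 arrays, *ROX1* 2.86 and *HAP1* 2.42, while *HEM14* spanned 1.09 and each of the other 6 spanned 0.82 or less, down to 0.29 for *HEM12*. The pooled SD within conditions was 0.054 for *HEM2* to 0.17 for *HEM13*.

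**Figure D1:**
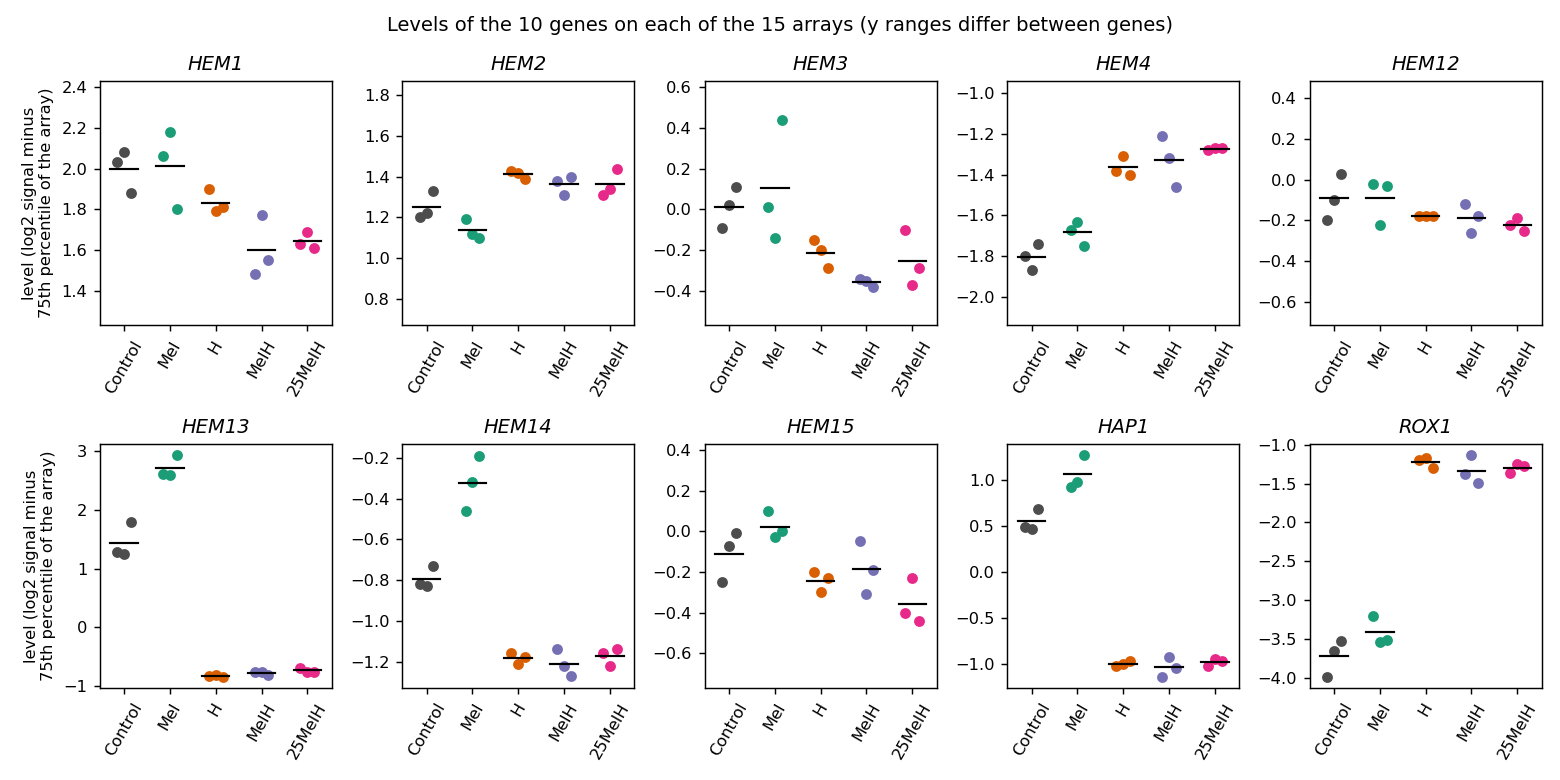
Level of each of the 10 genes (y axis, log2 signal minus the 75th percentile of the array, with a range of its own in each panel) in the 5 conditions (x axis). Each point is 1 array and each bar the mean of 3. *HEM13*, *HEM14* and *HAP1* stood highest in Mel and lowest in the 3 stressed conditions, and *ROX1* stood highest in the stressed ones.

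*HEM13* (YDR044W) encodes coproporphyrinogen III oxidase, an enzyme whose reaction needs molecular oxygen. Its level was 1.29, 1.24 and 1.79 on the Control arrays and 2.61, 2.60 and 2.94 on the Mel arrays. Under stress it was −0.84, −0.82 and −0.85 in H, −0.76, −0.76 and −0.82 in MelH and −0.69, −0.77 and −0.76 in 25MelH. Every Mel array was thus above every Control array, and every Control array above every stressed array. The 3 stressed conditions lay within 0.09 of one another in their means, with a 25MelH mean of −0.74 (SD 0.047, n = 3), a MelH mean of −0.78 (SD 0.039, n = 3) and an H mean of −0.83 (SD 0.020, n = 3). Neighbours in that order overlapped. In scanner units *HEM13* ran from 9880 to 20100 in Control, from 31400 to 42900 in Mel and from 1410 to 2010 under stress.

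*HAP1* (YLR256W) also stood highest in Mel, then in Control, and lowest in the 3 stressed conditions. Its level was 0.49, 0.47 and 0.68 in Control, 0.92, 0.98 and 1.27 in Mel, −1.02, −1.0 and −0.97 in H, −1.14, −0.92 and −1.04 in MelH and −1.02, −0.95 and −0.97 in 25MelH. Mel lay above Control, and Control above the stressed arrays, with no overlap at either step. *HEM14* (YER014W), for protoporphyrinogen oxidase, the mitochondrial enzyme that follows Hem13, also fell from Mel to Control to the stressed arrays, over a smaller range. It stood at −0.82, −0.83 and −0.73 in Control, −0.46, −0.32 and −0.19 in Mel, −1.16, −1.21 and −1.18 in H, −1.14, −1.22 and −1.27 in MelH and −1.16, −1.22 and −1.14 in 25MelH.

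*ROX1* (YPR065W) moved the other way under stress. Its level was −3.99, −3.65 and −3.53 in Control and −3.20, −3.54 and −3.51 in Mel, against −1.20, −1.17 and −1.30 in H, −1.38, −1.13 and −1.49 in MelH and −1.37, −1.25 and −1.27 in 25MelH. All 9 stressed arrays were above all 6 unstressed ones, while Mel and Control overlapped. The *ROX1* probe was dim, with signals of 333 to 581 on the unstressed arrays and 881 to 1470 on the stressed ones. The SD of the background-subtracted negative control spots was 6.17 to 8.89 on the Control arrays, 28.6 to 55 on the Mel arrays and 3.11 to 21.3 on the stressed arrays, and its part in the *ROX1* values was not tested.

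The first question is what H2O2 did to these genes. It was asked of Control cells (H vs. Control), of cells grown with melatonin (MelH vs. Mel) and over both (the mean of the 2 changes, from 12 arrays), by limma with Benjamini-Hochberg adjustment over 6224 genes and a threshold of 0.05. The first 2 comparisons share no array. The mean of both is another contrast than that for which *HEM13* was chosen, so *HEM13* was tested there. In each comparison on its own *HEM13* is a description. Both contrasts use the same 12 arrays, however, and are independent only where the conditions vary alike. The SD of *HEM13* was 0.31 in Control, 0.2 in Mel, 0.02 in H and 0.039 in MelH, so its adjusted p is not free of the choice. The fit also took the 12 arrays as independent. Same-numbered arrays of Control and Mel, and of H and MelH, varied together to some degree over all genes. The SEs and adjusted p of all members in the mean of both may thus be too small. Over both melatonin levels 9 of 10 members were called, 3 higher and 6 lower, beside 72.1% of all genes (30.6% higher and 41.5% lower), so a share this high was common on these arrays, and the sizes of the changes say more than the count. The members called were 4 higher and 3 lower with median scaling, 1 and 9 when spike-in probes set the scale, and 2 and 5 after quantile normalization. The median change was −0.23 over the members and −0.07 over all genes.

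*HEM13* fell by 2.88 (SE 0.098, adjusted p = 2.01e-09 by limma), a 7.38-fold lower relative level, and 32 of 6224 genes had a lower value. *HAP1* fell by 1.82 (SE 0.072, adjusted p = 5.52e-09), a 3.53-fold difference, with 159 genes below it. *ROX1* rose by 2.29 (SE 0.097, adjusted p = 9.42e-09), a 4.90-fold difference, with 15 genes above it. These 3 directions were the same under each of the 5 scalings tried, but the sizes were not, at −4.1 to −2.65 for *HEM13*, −3.03 to −1.58 for *HAP1* and 1.08 to 2.72 for *ROX1*, where 1.08 is the value with spike-in scaling. Taken relative to the median of all genes they were −3.01 to −2.82, −1.91 to −1.75 and 1.99 to 2.65, a subtraction that by its construction makes the 75th percentile, median and spike-in scalings equal. Within slide 1 and slide 2 the changes were −2.73 and −3.11 for *HEM13*, −1.73 and −1.92 for *HAP1* and 2.29 and 2.16 for *ROX1*.

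The remaining enzyme genes changed by far less. *HEM14* fell by 0.64 (SE 0.052, adjusted p = 1.29e-06), a 1.56-fold difference. It was lower under all 5 scalings, at −1.85 with spike-in probes and −0.40 with the median. *HEM1* (YDR232W), for 5-aminolevulinate synthase, which carries out the entry step, fell by 0.29 (SE 0.076, adjusted p = 0.006). *HEM3* (YDL205C), for porphobilinogen deaminase, fell by 0.34 (SE 0.089, adjusted p = 0.00539). Both calls were lost when arrays were scaled on their median, with values of −0.05 and −0.10. *HEM15* (YOR176W), for ferrochelatase, which inserts the iron, changed by −0.17 (SE 0.060, adjusted p = 0.0256), turning to 0.07 with median scaling. That call was lost without any one of Control replicate 2 or 3, Mel replicate 1, H replicate 2 or MelH replicate 2, with adjusted p of 0.0558 to 0.0634. *HEM12* (YDR047W), for uroporphyrinogen decarboxylase, had a change of −0.09 (SE 0.055, adjusted p = 0.148, 95% interval −0.22 to 0.03). It reached an adjusted p of 0.0468 without Mel replicate 2, and with median scaling its value was 0.15.

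*HEM4* and *HEM2* had positive values, which turn negative when arrays are scaled on their spike-in probes. *HEM4* (YOR278W), for uroporphyrinogen III synthase, rose by 0.40 (SE 0.051, adjusted p = 4.36e-05), or −0.82 with spike-in scaling. *HEM2* (YGL040C), for aminolevulinate dehydratase, rose by 0.20 (SE 0.041, adjusted p = 0.00137), or −1.02 with spike-in scaling, and that call was lost with quantile normalization, at 0.04. Spike-in scaling moved the median of all genes to −1.28, and relative to the median of all genes under each of the 5 scalings *HEM4* stayed above it by 0.30 to 0.56, whereas *HEM2* ranged from −0.03 to 0.26. *HEM2* was a reference gene of the study's qPCR, together with *ACT1* and *TAF10*. The stress effect was 0.26 (SE 0.074, adjusted p = 0.00956) for *ACT1* and −0.10 (SE 0.047, adjusted p = 0.0832) for *TAF10*, and with spike-in scaling both were negative, at −0.96 and −1.31.

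**Figure D2:**
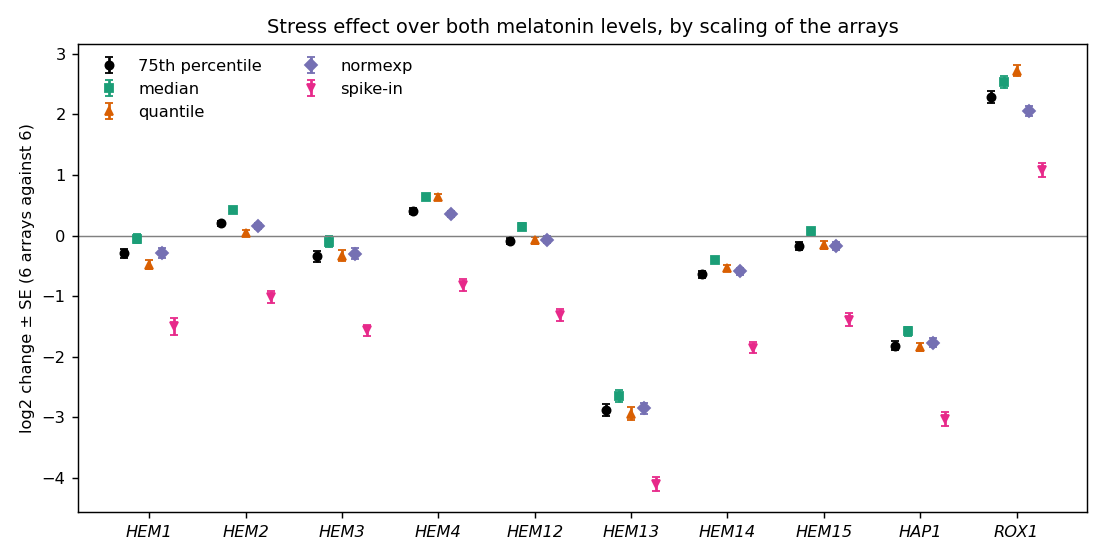
Stress effect over both melatonin levels (y axis, log2 change with its SE, 6 stressed arrays against 6 unstressed) for each gene (x axis) under 5 scalings of the arrays. *HEM13*, *HEM14* and *HAP1* were below 0 and *ROX1* above 0 under all 5, whereas *HEM2* and *HEM4* were above 0 under 4 and fell below it with spike-in scaling.

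In H vs. Control 6 of the 9 members tested were called, 3 higher and 3 lower, beside 68.4% of all genes (27.2% higher and 41.2% lower). *HAP1* fell by 1.55 (SE 0.068, adjusted p = 2.18e-05) and *ROX1* rose by 2.50 (SE 0.13, adjusted p = 3.22e-05). *HEM14* fell by 0.39 (SE 0.045, adjusted p = 0.00061) and *HEM4* rose by 0.44 (SE 0.051, adjusted p = 0.000599), the latter −0.98 with spike-in scaling. *HEM14* was at −0.13 with median scaling and at −1.81 with spike-in scaling, and within slide 1 the calls of *HEM14* (adjusted p = 0.0819) and *HEM4* (adjusted p = 0.0581) were lost. *HEM13* differed by −2.28 (SE 0.15), a 4.84-fold lower level. The arrays of the 2 conditions did not overlap for 3 members higher and 4 lower in H, beside 73.9% of all genes (30.1% higher and 43.8% lower). The calls of *HEM2* at 0.16 (adjusted p = 0.0281, −1.25 with spike-in scaling) and *HEM3* at −0.22 (adjusted p = 0.0285, 0.03 with median scaling) were borderline, and most fits without 1 array lost them. *HEM2* lost its call in 5 of the 6 fits without 1 array, all but that without Control replicate 3, with adjusted p of 0.0611 to 0.0909, and *HEM3* in those without Control replicate 2 or 3 or H replicate 2 or 3, with adjusted p of 0.0665 to 0.0909. With the slide as a block 4 members were called, 2 higher and 2 lower, *HEM2* and *HEM3* being lost (adjusted p = 0.0617 and 0.0504). *HEM1* became a call without Control replicate 3 (adjusted p = 0.0181) and *HEM15* without Control replicate 1 (adjusted p = 0.0191).

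In MelH vs. Mel 6 of 9 were also called, 2 higher and 4 lower, beside 52.9% of all genes (21.9% higher and 31.0% lower). *HAP1* fell by 2.09 (SE 0.13, adjusted p = 3.23e-05), *HEM14* fell by 0.89 (SE 0.11, adjusted p = 0.000535) and *ROX1* rose by 2.08 (SE 0.14, adjusted p = 4.86e-05). *HEM13* differed by −3.49 (SE 0.12), an 11.3-fold lower level. Here 3 members were higher and 6 lower in MelH with no overlap, beside 63.4% of all genes (27.2% higher and 36.2% lower). Of the smaller changes, *HEM1* was at −0.41 (adjusted p = 0.0357), *HEM3* at −0.46 (adjusted p = 0.0404) and *HEM4* at 0.35 (adjusted p = 0.0239), or −0.66 for *HEM4* with spike-in scaling. With median scaling *HEM1* and *HEM3* were at −0.19 and −0.24 (adjusted p = 0.242 and 0.236), and 3 members were called higher and 2 lower. With the slide as a block 4 were called, 1 higher and 3 lower, *HEM3* and *HEM4* being lost (adjusted p = 0.0689 and 0.0556). Each of these calls was lost in several fits without 1 array. *HEM1* lost it without Mel replicate 1 or 2 or MelH replicate 1 or 3 (adjusted p of 0.0904 to 0.12), *HEM3* without Mel replicate 1 or any MelH replicate (0.0633 to 0.0953) and *HEM4* without Mel replicate 1 or MelH replicate 1 or 2 (0.0522 to 0.0978). *HEM2* had a change of 0.23 (adjusted p = 0.0629) that was −0.79 with spike-in scaling.

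**Figure D3:**
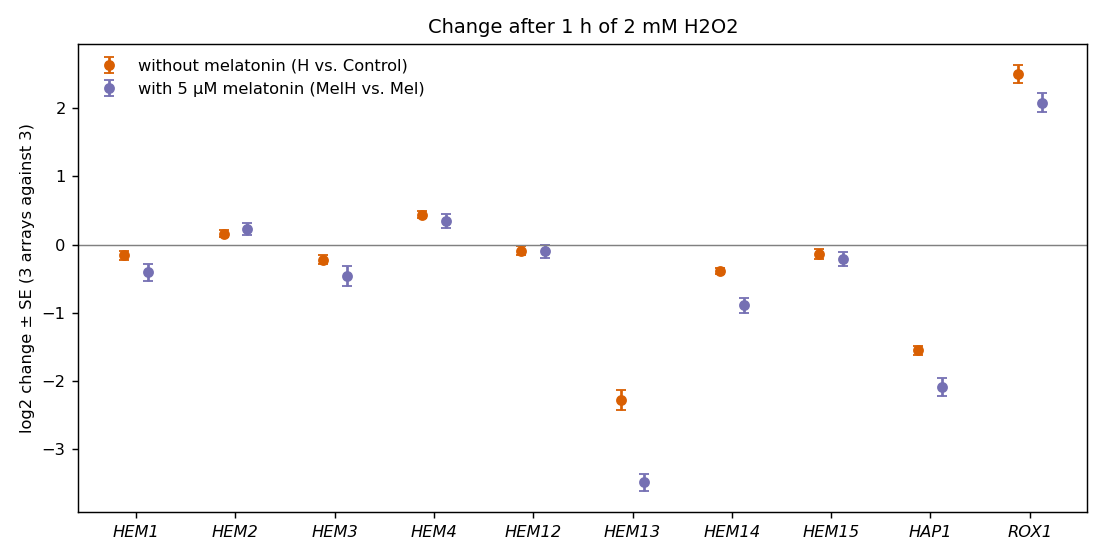
Change after 1 h of 2 mM H2O2 (y axis, log2 change with its SE, 3 arrays against 3) for each gene (x axis), without melatonin (H vs. Control) and with 5 μM melatonin (MelH vs. Mel). *HEM13* stood at −2.28 and −3.49, *HAP1* at −1.55 and −2.09, *HEM14* at −0.39 and −0.89, and *ROX1* at 2.50 and 2.08.

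The second question is what 5 μM melatonin did without stress and with it. The part was chosen on the difference between these effects, so the values of all members are given without a test. Without stress, *HEM13* was higher by 1.28 in Mel than in Control (SE 0.18), a 2.42-fold difference and the sixth highest value of 6224 genes. *HAP1* was higher by 0.51 (SE 0.12) and *HEM14* by 0.47 (SE 0.099), and in these 3 genes every Mel array was above every Control array, beside 7.30% of all genes. With spike-in scaling *HEM13* was at 1.00, *HAP1* at 0.24, *HEM14* at 0.20 and *ROX1* at 0.03. *HEM2* was lower by 0.11 (SE 0.084) with no overlap, as were 11.2% of all genes, or 18.5% in either direction. *ROX1* was at 0.31 (SE 0.15) with overlapping arrays, at 0.62 within slide 1 and at 0.00 within slide 2. The remaining 5 members ranged from 0.00 for *HEM12* to 0.13 for *HEM15*. Within slide 1 and slide 2 *HEM13* differed by 1.34 and 0.98, *HAP1* by 0.44 and 0.44, and *HEM14* by 0.37 and 0.47. Leaving out 1 array gave 1.16 to 1.45 for *HEM13*, 0.40 to 0.58 for *HAP1* and 0.40 to 0.54 for *HEM14*.

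Under stress the values for the same dose lay close to 0. *HEM13* was at 0.06 in MelH vs. H (SE 0.041, 95% interval −0.05 to 0.16), *HAP1* at −0.04 (SE 0.067, −0.20 to 0.13), *HEM14* at −0.03 (SE 0.050, −0.15 to 0.10) and *ROX1* at −0.11 (SE 0.10, −0.36 to 0.14). *HEM1* and *HEM3* were the members with no overlap, both lower, as were 8.04% of all genes, with 13.7% higher and 21.7% in either direction. *HEM1* had levels of 1.90, 1.79 and 1.81 in H and of 1.48, 1.77 and 1.55 in MelH, a change of −0.23 (SE 0.085). *HEM3* had levels of −0.15, −0.20 and −0.29 in H and of −0.34, −0.35 and −0.38 in MelH, a change of −0.14 (SE 0.050).

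The difference between the effects, stressed minus unstressed, was −1.22 for *HEM13* (SE 0.20), which placed it at 38 by size among 6224 genes and at 15 from the lowest. It was −0.55 for *HAP1* (SE 0.14), −0.50 for *HEM14* (SE 0.10) and −0.42 for *ROX1* (SE 0.19). The other 6 members ranged from −0.25 for *HEM1* to 0.06 for *HEM2*. With spike-in scaling *HEM13* was at −0.81, *HAP1* at −0.14, *HEM14* at −0.09 and *ROX1* at −0.01, and the other 6 ran from 0.16 for *HEM1* to 0.47 for *HEM2*.

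**Figure D4:**
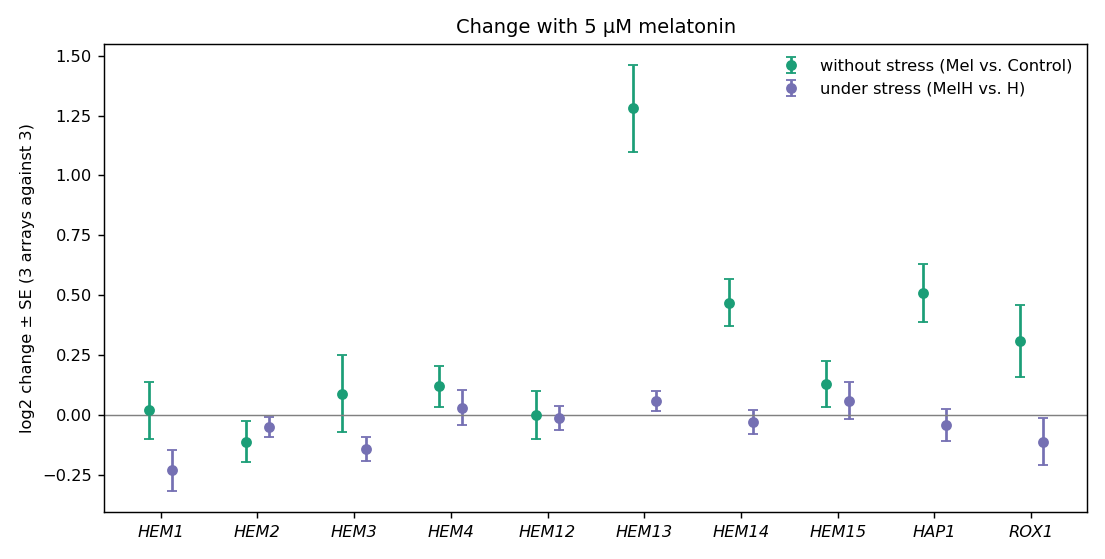
Change with 5 μM melatonin (y axis, log2 change with its SE, 3 arrays against 3) for each gene (x axis), without stress (Mel vs. Control) and under stress (MelH vs. H). *HEM13*, *HAP1* and *HEM14* stood at 1.28, 0.51 and 0.47 without stress and at 0.06, −0.04 and −0.03 under it.

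Raising the dose from 5 to 25 μM under stress gave no call among the 9 members tested, nor among all genes (0% by limma, with 86 genes at an unadjusted p under 0.05 and a smallest adjusted p of 1). The members' changes in 25MelH vs. MelH ran from −0.17 for *HEM15* to 0.10 for *HEM3*. The 95% interval was −0.12 to 0.23 for *HAP1*, −0.21 to 0.28 for *ROX1* and −0.11 to 0.18 for *HEM14*. No member had separated groups, beside 5.75% of all genes (1.91% higher and 3.84% lower). Against stress without melatonin (25MelH vs. H) limma again called 0 members and 0% of all genes, with 987 genes at an unadjusted p under 0.05 and a smallest adjusted p of 0.0666. *HEM1* was the farthest, at −0.19 (SE 0.046, adjusted p = 0.214), with 25MelH levels of 1.63, 1.69 and 1.61 below all of the H levels given above. *HEM1* and *HEM12* were lower and *HEM4* and *HEM13* higher with no overlap, beside 11.0% lower, 13.6% higher and 24.6% in either direction among all genes. MelH vs. H and 25MelH vs. H share the H arrays.

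Genes with the pattern most like that of *HEM13* over the 15 arrays were sought among 5320 genes well above background on all of them. The 5 nearest by Pearson's r were *FET4* (0.995), a low-affinity iron and metal transporter gene, *AAC3* (0.994), a hypoxic ADP/ATP carrier gene, *CIT2* (0.993), for peroxisomal citrate synthase, *YHR022C* (0.992) and *HAP1* (0.992). The arrays fall into a stressed and an unstressed cluster, and r over all 15 spans both. Over the 6 unstressed arrays r was 0.95 to 0.98 for these 5 and 0.97 for *HEM14*, and over the 9 stressed arrays, where *HEM13* hardly varied, it ran from −0.40 for *AAC3* to 0.53 for *FET4*. The 6 unstressed arrays are those of Control and Mel, which did not overlap for *HEM13*, so r over them spans that difference. The 5 genes were also picked over arrays that include these 6, so the unstressed r is no separate evidence. *FET4* levels were −2.44, −2.57 and −1.93 in Control, −1.09, −1.10 and −1.35 in Mel and −4.52, −4.30 and −4.40 in H.

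On the chromosome, *HEM13* lies beside *NRG1*, a gene for a glucose-dependent repressor, and *HEM12* is the third gene on its other side. *NRG1* had values of −1.45 in H vs. Control, −1.65 in MelH vs. Mel and 0.11 in Mel vs. Control. The genes on the other side had values, in the same order, of −0.17, 0.01 and 0.08 for *RPC11*, −0.46, −0.63 and 0.08 for *BAP3* and −0.09, −0.10 and 0.00 for *HEM12*. The 1.28 of *HEM13* in Mel was thus not seen at its neighbours.

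Rox1 targets were followed in a list of 11 hypoxic genes. The study had described some of them on these arrays, so the list is no independent evidence. Over both melatonin levels 9 fell and 1 rose under stress, beside 41.5% and 30.6% of all genes, with a median change of −1.02 beside −0.07 for all genes. *FET4* fell by 2.63 (SE 0.10), *COX5B*, for a hypoxic cytochrome oxidase subunit, by 1.43 (SE 0.074) and *AAC3* by 1.41 (SE 0.089). *DAN1*, for an anaerobic cell wall mannoprotein, was at −1.41 (SE 0.26), but it was not well above background on any array except those of Mel, so this value is no measure of size, and with normexp background it was 0.14. *DAN1* was 1 of the 9 called lower, so that count includes a gene with no measured size. With *DAN1* set to 0 the median of the list was −0.98. The gene that rose was *ERG11*, for the sterol demethylase, at 0.28 (adjusted p = 0.00103), or −0.93 with spike-in scaling. With median scaling 8 of the list fell and 2 rose. With quantile normalization and with normexp background 8 fell and 1 rose, and with spike-in scaling 11 fell and 0 rose. Without stress, 8 of the 11 were above Control on every Mel array, beside 7.30% of all genes, with a median of 0.66. *ANB1*, a hypoxic translation factor gene, was higher by 1.16 (SE 0.11), *FET4* by 1.13 (SE 0.18) and *TIR1*, for a mannoprotein, by 0.82 (SE 0.13). With arrays scaled on the 75th percentile *DAN1* was at least 3.47-fold higher in Mel, which is the Mel mean against the larger of each Control array's detection limit and the probe's own value there, and with *DAN1* at that bound the median stayed at 0.66. With normexp background *DAN1* was higher by 0.86 on the log2 scale, which is below that bound, and its Mel signals of 59.8 to 85.4 were not far above the negative control SD of those arrays (28.6 to 55), so the size of its change is not settled. Under stress the list's median with melatonin was 0.03.

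Hap1 targets were followed in a list of 9 aerobic genes. The study had described some of them, such as *CYC1*, *CYT1* and *NDE1*, as lower with melatonin on these arrays, so this list is no independent evidence either. Of these 7 rose and 1 fell under stress, beside 30.6% and 41.5% of all genes, with a median of 0.98. *NDE1*, a mitochondrial NADH dehydrogenase gene, rose by 1.34 (SE 0.044), *HMG1*, for a sterol pathway reductase, by 1.32 (SE 0.071), *CYC1*, for cytochrome c, by 1.17 (SE 0.066) and *CYT1*, for cytochrome c1, by 1.02 (SE 0.074), and with spike-in scaling the list's median was −0.23, with 0 called higher and 4 lower. *CTT1*, for cytosolic catalase, was at −0.23 (adjusted p = 0.0494), and it was above 0 with median scaling and quantile normalization. The 7 targets that rose and *HAP1* itself thus had opposite signs when arrays were scaled on the 75th percentile. Without stress 7 of the 9 were below Control on every Mel array, beside 11.2% of all genes, with a median of −0.40, and *CYC1* levels were 2.74, 2.77 and 2.67 in Control and 2.03, 1.99 and 2.33 in Mel.

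Genes of heme supply, use and breakdown numbered 14, and 8 fell and 3 rose under stress, beside 41.5% and 30.6% of all genes, with a median of −0.26. With median scaling 4 fell and 5 rose, with a median of −0.02. *HMX1*, for heme oxygenase, which degrades heme, had levels of −2.94, −2.80 and −3.04 in Control and of −0.41, −0.32 and −0.30 in H. It rose by 2.60 (SE 0.069, adjusted p = 4.98e-10), a 6.05-fold difference, and by 1.38 to 2.96 over the 5 scalings. *COX10*, for the farnesyl transferase that turns heme B into heme O, fell by 2.01 (SE 0.073, adjusted p = 2.99e-09), *MRS3*, a mitochondrial iron carrier gene, by 0.84 (SE 0.053), and *HEM25*, for the glycine carrier that feeds heme synthesis, by 0.71 (SE 0.088). These 3 were lower under all 5 scalings. In Mel vs. Control 5 of the 14 were below Control on every array and 0 above, beside 11.2% and 7.30% of all genes, *COX10* being at −0.25 (SE 0.10) and *HMX1* at −0.04 (SE 0.10). The study had listed *COX10*, *COX15*, *CYC3* and *CYT2* as lower with melatonin on these arrays, so this count is no independent evidence.

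Of 11 other regulators 7 fell and 0 rose under stress, beside 41.5% and 30.6% of all genes, with a median of −0.55. They included *HAP3*, at −1.19 (SE 0.11), and *HAP4*, at −0.70 (SE 0.072), both of the Hap2/3/4/5 activator of respiratory genes, *UPC2*, a sterol-sensing activator gene, at −0.85 (SE 0.049), and *MGA2*, for an activator of the hypoxic response, at −0.73 (SE 0.056). With median scaling 7 fell and 2 rose. The genes of the Tup1-Cyc8 co-repressor through which Rox1 acts were at −0.09 (*TUP1*, adjusted p = 0.351) and 0.10 (*CYC8*, adjusted p = 0.146).

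**Figure D5:**
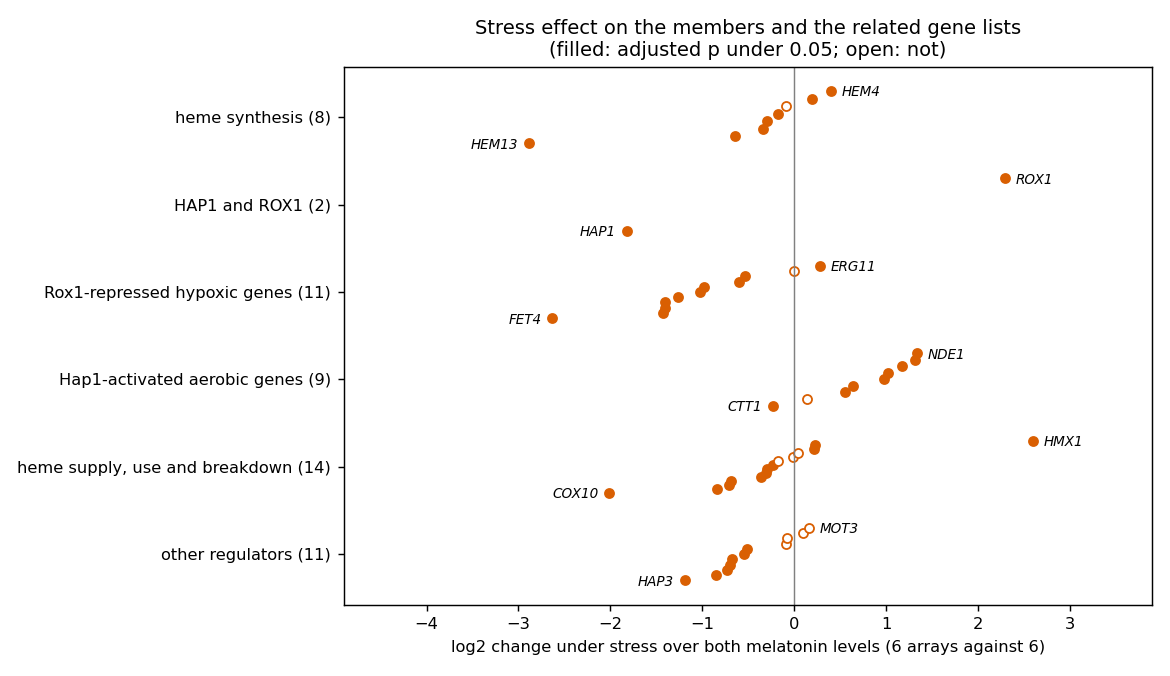
Stress effect over both melatonin levels (x axis, log2 change, 6 arrays against 6) of each gene, 1 point a gene, in 6 groups (y axis, number of genes in brackets), with filled points for an adjusted p under 0.05. *ROX1* at 2.29 and *HMX1* at 2.60 stood at the upper end, and *HEM13* at −2.88 and *FET4* at −2.63 at the lower.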

How the data were processed

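Each array held RNA of 1 culture, labelled with Cy3. The deposited scanner intensities came from the authors' extraction with Feature Extraction 12.0.1.1, which had already subtracted the background (normexp, below, used the raw median intensities of spot and surround instead). The array design was annotated on sacCer2. The deposited table of log2 values, by the authors, was on the 75th percentile of each array and centred per probe. Of its 15 columns 9 equal the scanner values of another condition (r of at least 0.9999), so it served as an alternative only.

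Control spots and 1 to 84 spots an array with outlier flags were left out. The log2 intensities of the 2 spots of each probe were averaged and set relative to the 75th percentile of their array. The 6256 probes gave 6224 genes, the brightest probe standing for a gene. Symbols and gene neighbours came from RefSeq (R64), which named 5207 genes. The arrays' number limits the precision. limma 3.58.1 (R 4.3.3) was fitted on the arrays compared, without a block, at an adjusted p of 0.05, after a test on simulated data. Where same-numbered arrays pair was checked by correlating their deviations from the condition means. In Mel vs. Control (0.106 to 0.280) and MelH vs. H (0.143 to 0.307) all 3 pairs were over 0.1, and these comparisons carry no call here. In the other comparisons fewer pairs were. The SEs and intervals given for Mel vs. Control, MelH vs. H and their difference still come from the fit without a block.

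The members and lists were chosen with earlier results of these data known. Named were all members, the 5 genes most like *HEM13*, the 3 qPCR reference genes, 5 stress genes and, of each list, up to 4 genes with the largest called stress effect. In Mel vs. Control the 4 Rox1 targets with the largest change were named. *ERG11*, *CTT1*, *TUP1*, *CYC8* and the neighbours of *HEM13* were named after their values were seen. Alternatives were other scalings (median, quantile, 7 spike-in probes, normexp with an offset of 50), a filter on dim genes, averaged probes, all arrays in 1 fit, the slide and the replicate number as blocks, each slide alone, the value table and each array left out.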

Additional observations from a re-analysis of the deposited data

How the results depend on the processing

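The scaling moved the split of higher and lower calls. In the stress effect 1907 genes were higher and 2583 lower, against 2932 and 1723 with median scaling, 2389 and 1894 with quantile normalization, 31 and 5864 with spike-in scaling and 2446 and 2121 with normexp background. The corresponding counts were 1695 and 2563, 2722 and 1687, 2266 and 1817, 20 and 5936, and 2582 and 2083 in H vs. Control, and 1366 and 1928, 2287 and 1307, 1632 and 1316, 48 and 5243, and 1111 and 1500 in MelH vs. Mel. Spike-in scaling moved the median of all genes to −1.51 (H vs. Control), −1.06 (MelH vs. Mel) and −1.28 in the stress effect, and called 5291 genes in MelH vs. Mel and 15 in 25MelH vs. MelH. It turned *HEM2* and *HEM4* to −1.02 and −0.82 in the stress effect, −0.79 and −0.66 in MelH vs. Mel, and −1.25 and −0.98 in H vs. Control. In Mel vs. Control it gave 1.00 for *HEM13*, −0.16 for *HEM4* and −0.15 for *HEM15*, and in the difference between melatonin effects −0.81 for *HEM13*, 0.16 for *HEM1*, 0.17 for *HEM3* and 0.32 for *HEM4*. Median scaling turned *HEM3* to 0.03 in H vs. Control and *HEM12* and *HEM15* to 0.15 and 0.07 in the stress effect, and called 3 genes in 25MelH vs. H, where leaving out dim genes called 24. In the difference *HEM2* was −0.04 with normexp background and −0.07 within slide 1. The cause was not tested.

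Each slide alone leaves fewer arrays. Within slide 1, 2 members and 1825 genes were called in H vs. Control and 3 and 2042 in MelH vs. Mel. Within slide 2 these were 3 and 1298 in MelH vs. Mel and 4 and 2694 in the stress effect. *HEM13* and *HEM15* were at 0.98 and −0.01 in Mel vs. Control within slide 2, and *HEM13* at −0.97 in the difference. A condition with 1 array on a slide was assumed to vary like the others, and 25MelH vs. MelH within slide 2 was not run, with 1 array in each condition.

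With the replicate number as a block, 4 members and 3919 genes were called in H vs. Control (*HEM2* and *HEM3* lost, with adjusted p of 0.0833 and 0.0896), 6 and 3249 in MelH vs. Mel, and 0 in both comparisons with 25MelH. Of the 6 arrays, 3 in MelH vs. Mel and 0 in H vs. Control correlated best with the array of their own number. For Mel vs. Control this count was 6 of 6, and it was also 6 of 6 for MelH vs. H. It was 2 of 6 for 25MelH vs. MelH and 1 of 6 for 25MelH vs. H. For the stress effect, where the block was a choice made after seeing the data, 9 members and 4468 genes were called. That block joins stressed and unstressed arrays of the same number, so it does not address pairing within each stress level. The same block left *HEM13* at 1.28 (SE 0.11) in Mel vs. Control and at 0.06 (SE 0.051) in MelH vs. H. With the replicate number within each stress level as a block, the difference of *HEM13* was −1.22 (SE 0.099). These SEs differ from those of the fit without a block.

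Leaving out 1 array gave 4 to 6 members and 3812 to 4220 genes called in H vs. Control, 3 to 6 and 2370 to 3182 in MelH vs. Mel, 8 to 10 and 4246 to 4560 in the stress effect and 0 in both comparisons with 25MelH. *HEM13* stayed at 1.16 to 1.45 in Mel vs. Control, 0.05 to 0.08 in MelH vs. H and −1.39 to −1.11 in the difference.

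The value table, read by its column names, exchanges Mel, H and MelH. In H vs. Control it then called 0 members and 22 genes, with *HEM2* at −0.11, *HEM3* at 0.09, *HEM13* at 1.28, *HEM14* at 0.47 and *HAP1* at 0.51. In MelH vs. Mel it called 0 members and 0 genes, with *HEM1* at 0.23, *HEM3* at 0.14, *HEM4* at −0.03, *HEM14* at 0.02 and *HAP1* at 0.04. In the stress effect it called 1 member and 23 genes, with *HEM1* at 0.13, *HEM2* at −0.03, *HEM3* at 0.12, *HEM13* at 0.61, *HEM14* at 0.25, *HEM15* at 0.03 and *HAP1* at 0.27. In 25MelH vs. H it called 6 members and 3435 genes, with *HEM14* at −0.85, *HAP1* at −2.04 and *ROX1* at 2.12. Mel vs. Control gave *HEM2* at 0.12, *HEM13* at −2.22, *HEM14* at −0.41, *HEM15* at −0.07 and *HAP1* at −1.58, MelH vs. H gave *HEM13* at −3.55, and the difference gave *HEM1* at 0.22 and *HEM3* at 0.05. Read by the scanner table each column equals, no member's call changed.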
